A study of Ictidomys tridecemlineatus with 31 samples.

Results

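Water channels of the aquaporin family and the receptors for vasopressin were followed in kidneys of the 13-lined ground squirrel, a hibernator that spends the cold season cycling between torpor and short warm periods. The members were 9 genes listed by symbol, namely Aqp1, Aqp2, Aqp3, Aqp4, Aqp6, Aqp7, Aqp11, Avpr2, and Avpr1a, matched without regard to case in a table of 12863 genes. Of these, 8 matched. No row carried the symbol Aqp4, which was not analysed here. Aqp11 matched 2 rows, and the row with the higher mean (gene6798, mean 8.75) was taken.

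The kidneys came from 31 animals, 17 female and 14 male, each implanted with a device that records temperature and each giving 1 library from a fragment of frozen kidney. Summer active animals (SA, n = 5) were fattening before hibernation, and spring dark animals (SpD, n = 5) had stopped using torpor but still lived in the dark hibernaculum. The hibernation groups were sampled at the start of rewarming from torpor (EAr, n = 5), later in rewarming (LAr, n = 6), soon after rewarming during interbout arousal (IBA, n = 5), and during entrance into the next torpor bout (Ent, n = 5). Experiment 1 (9 animals) held only IBA, Ent, and SpD and was made with a TruSeq kit, while experiment 2 (22 animals) held all 6 groups and was made with a Nugen kit. Values are batch-corrected regularized log (rlog) values, which are on the log2 scale, so a difference of 1 is a 2-fold difference, and differences of weakly expressed genes are pulled toward 0. The values are not scaled by gene length, so they were compared between animals and not between genes. Counts were not used here and the depth is unknown.

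Background on these genes comes from mammalian kidneys in general. Vasopressin from the pituitary binds the V2 receptor (Avpr2) on principal cells of the collecting duct, which raises cyclic AMP, activates protein kinase A, and moves vesicles with aquaporin 2 (Aqp2) to the apical membrane. Water then leaves the cell through aquaporin 3 (Aqp3) and aquaporin 4 in the basolateral membrane, and sustained vasopressin also raises transcription of the Aqp2 gene. Aquaporin 1 (Aqp1) is the constitutive channel of the proximal tubule and the thin descending limb, and aquaporin 7 (Aqp7) carries water and glycerol in the brush border of the straight proximal tubule. Aquaporin 6 (Aqp6) lies in intracellular vesicles of acid-secreting intercalated cells, and aquaporin 11 (Aqp11) lies inside proximal tubule cells. The V1a receptor (Avpr1a) signals through Gq and phospholipase C and is best known from vascular smooth muscle.

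The kidney label was checked with marker lists. All 12 proximal tubule markers, all 8 principal cell markers other than the members, and all 12 intercalated cell markers were in the table. The median value over all genes lay between 9.74 and 9.88 in the 31 animals. In the RefSeq annotation of another assembly of this species (mIctTri1.hap1) Aqp7 and Aqp3 are neighbours, and so are Aqp6, Aqp5, and Aqp2.

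K113, K137, and K130 stood apart in these genes and are described before the comparisons. The study left K113 (LAr) and K137 (SA) out of its differential expression analysis and kept K130 (SpD). It describes K113 and K137 as extreme in apparent cell types within their groups, and proposes that both were later in their change of state. Aqp2 was far higher in each of these kidneys than in any other kidney of its state. In K113, Aqp2 read 13.69 against 11.73 to 12.54 in the other 5 LAr animals. In K137 it read 14.55 against 12.39 to 13.07 in the other 4 SA animals, and in K130 14.31 against 12.59 to 13.19 in the other 4 SpD animals. Aqp3 and Avpr2 were likewise above every other animal of the state in all 3 kidneys. Aqp3 lay 1.87 above the mean of the other animals of its state in K113, 1.99 in K137, and 1.23 in K130. Avpr2 lay 1.40, 1.64, and 1.11 above it, respectively. In the mean of these 3 differences, 99.5% of all genes lay below Aqp3, 99.4% below Aqp2, and 99.0% below Avpr2. The 3 kidneys were named in the rule that chose these genes, so ranks over them are a description and not a test.

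Avpr1a went the other way in the same kidneys. It read 6.52 in K113 against 7.33 to 7.83, 7.14 in K137 against 8.47 to 9.08, and 6.99 in K130 against 7.56 to 8.90. The differences from the mean of the others were -1.10, -1.60, and -1.34, and only 0.389% of all genes had a lower mean difference. Aqp11 lay below its state in K113 (-0.70) and K137 (-0.74) and within it in K130 (-0.08). Aqp1 and Aqp6 were above their state in K130 alone, by 0.94 and 0.98, and Aqp1 was below it in K113 (-0.24). Aqp7 was below its state in K113 (-0.40) and within it in K137 (-0.16) and K130 (0.16).

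Genes of the renal medulla moved with Aqp2, Aqp3, and Avpr2 in these kidneys. Slc14a2, the urea transporter of the inner medullary collecting duct, was higher than the mean of the others by 6.34 in K113, 4.74 in K137, and 3.21 in K130. Slc14a1, the urea transporter of the descending vasa recta, was higher by 3.09, 2.99, and 2.75. The osmolyte genes Slc5a3 (myo-inositol uptake, 1.39, 1.70, and 1.67) and Slc6a12 (betaine uptake, 1.88, 1.07, and 1.12) and the small heat shock protein gene Cryab (2.03, 3.21, and 1.33) were above every other animal in all 3 kidneys. Akr1b1, which makes sorbitol, was above them in K113 (2.91) and K137 (3.55) and not in K130 (-0.11). Slc6a6 (taurine uptake) was below them in all 3, and Hspa4l and Bst1 differed by at most 0.23 in either direction. The mean of the 9 medulla and osmolyte genes was higher by 1.92, 1.89, and 1.04, while that of the 12 proximal tubule genes differed by -0.95, -1.06, and -1.48. The mean of the 12 intercalated cell genes was also below every other animal of the state in all 3. The mean of the 8 principal cell markers that are not members moved less, at -0.08 in K113, 0.05 in K137, and 0.36 in K130. In a piece of tissue, fewer cells of a type and less RNA per cell cannot be told apart. The part that the share of medulla had in these values was not tested.

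**Figure D1:**
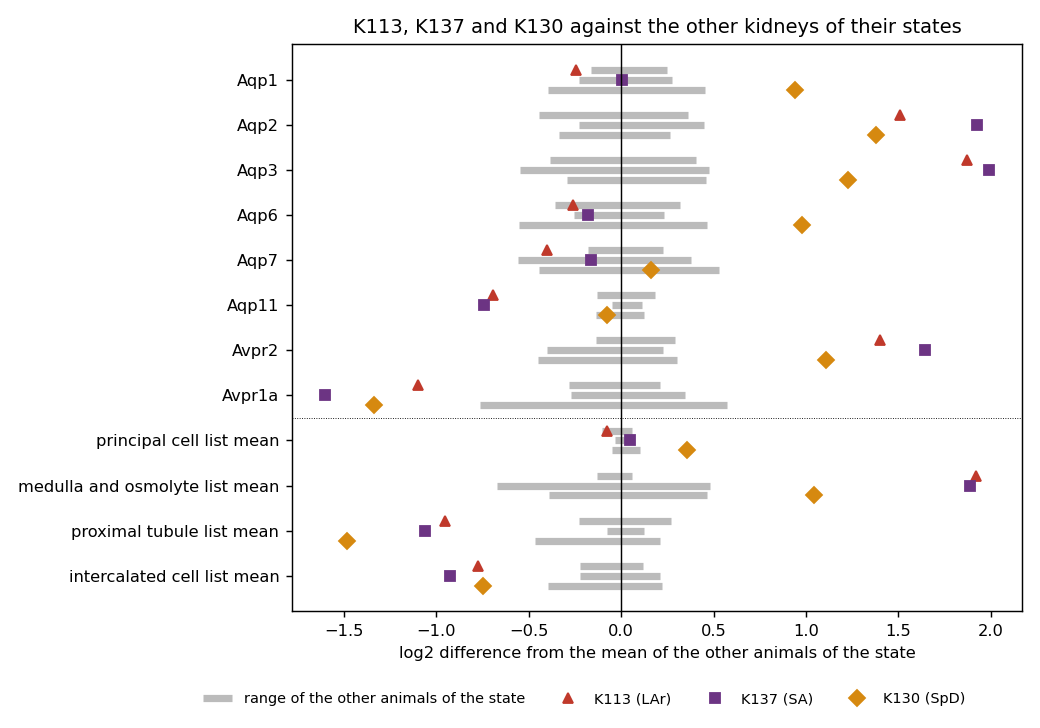
Difference of K113 (LAr), K137 (SA), and K130 (SpD) from the mean of the other animals of the same state, on the log2 scale, for the 8 genes and for 4 marker list means. Grey bars show the range of the other animals around their own mean (5 in LAr, 4 in SA and SpD). Aqp2, Aqp3, and Avpr2 lie 1.11 to 1.99 above and Avpr1a lies 1.10 to 1.60 below in all 3 kidneys.

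Each gene was then compared across states in the 29 animals without K113 and K137, with limma and terms for state, sex, and experiment, and q values were adjusted over all 12863 genes. A gene was called at q under 0.001, the study's threshold, and counts at q under 0.05 are given beside it. Across the 6 states no member passed 0.001 (0 of 8, all genes 9.34%), and all 8 passed 0.05 (all genes 46.1%) and also an unadjusted p under 0.05. The q values ran from 0.003 (Aqp6) to 0.039 (Avpr2). With all 31 animals 3 of 8 passed 0.05 (all genes 32.8%), namely Aqp1 (q = 0.0031), Aqp6 (q = 0.0025), and Aqp7 (q = 0.014). Without K130 as well (28 animals), 6 passed 0.05 (all genes 42.2%), Avpr1a passed 0.001 (q = 0.00022), and Aqp2 (q = 0.11) and Avpr2 (q = 0.19) did not pass.

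Hibernation was then compared with the active states. The mean of the 4 hibernation states was lower than that of the 2 active states in 7 of 8 members at q under 0.05 (all genes lower at this threshold: 16.8%), and in no member was it higher at this threshold. Avpr1a passed 0.001, so 1 of 8 was called lower there (all genes 5.29%). The median difference of the 8 members was -0.56, whereas the median of all genes was 0.0002. The 7 genes that fell were also the 7 below 0.05 with 31 and with 28 animals. Animals of the active and hibernation states overlapped in every member. The share of all genes without overlap was not counted, here or for the pairs of states below.

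**Figure D2:**
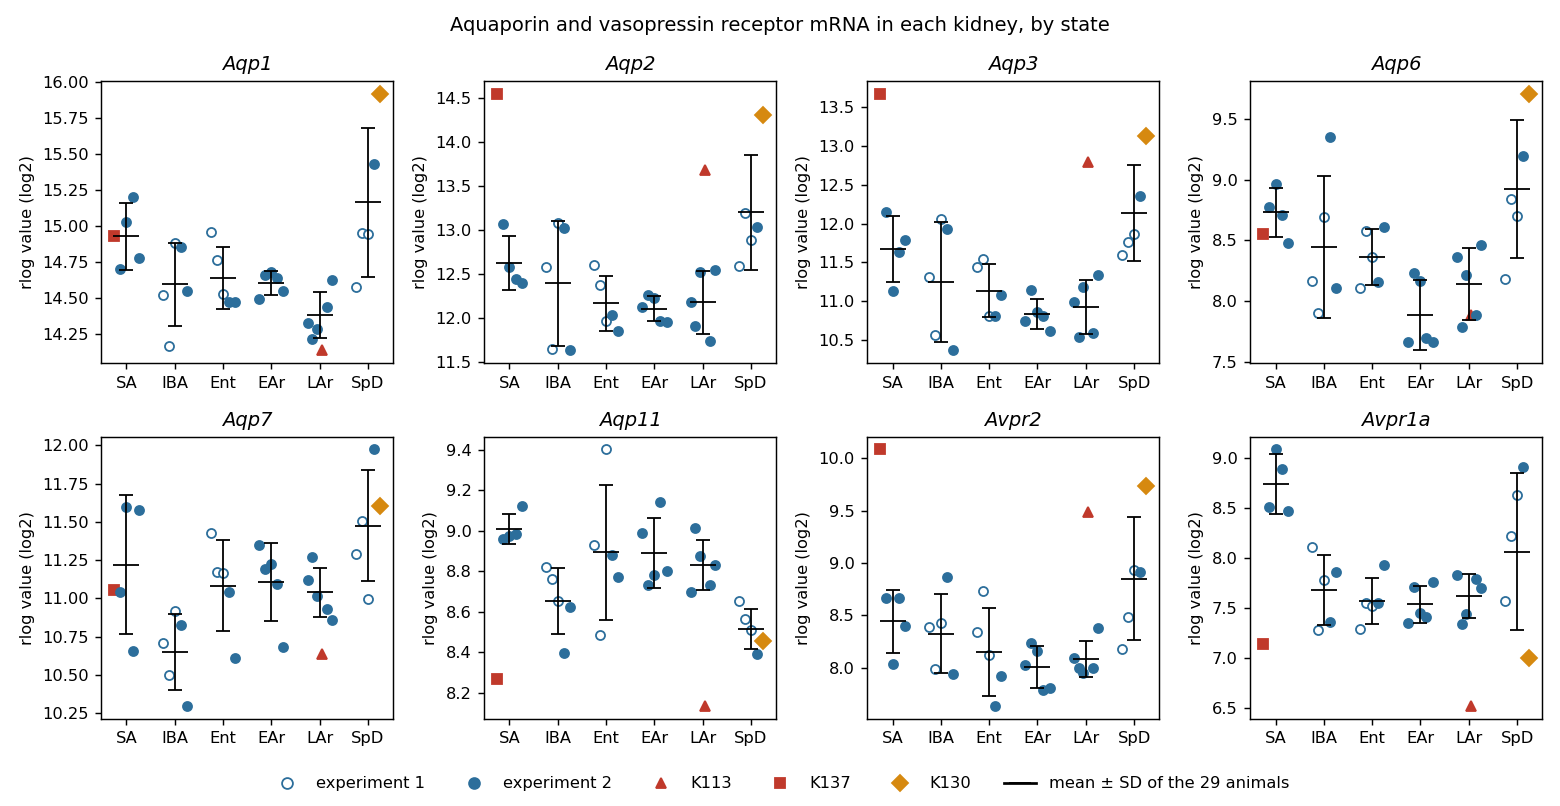
Batch-corrected rlog values (log2 scale) of the 8 genes in each of the 31 kidneys, by state. Open circles are experiment 1 and filled circles experiment 2, red and orange symbols mark K113, K137, and K130, and black bars show the mean ± SD of the 29 animals. SA and SpD lie above the hibernation states in mean for Aqp1, Aqp2, Aqp3, Aqp6, Aqp7, Avpr2, and Avpr1a but not for Aqp11, with overlap between animals in each.

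Aqp2, the channel that vasopressin moves to the apical membrane, was 1.63-fold lower in hibernation than in the active states (log2 difference -0.70, SE 0.18, q = 0.0052). In SA, Aqp2 read 13.07, 12.58, 12.45, and 12.39, and in SpD 12.59, 13.19, 12.88, 13.04, and 14.31 (K130). In IBA, Aqp2 read 12.58, 11.64, 13.08, 13.02, and 11.63, and in Ent 12.60, 12.37, 11.97, 12.04, and 11.85. In EAr, Aqp2 read 12.12, 12.26, 12.23, 11.96, and 11.95, and in LAr 12.18, 11.91, 12.52, 11.73, and 12.54. All SpD animals lay above all EAr and LAr animals, all SA animals lay above all EAr animals, and IBA spread over nearly the whole range of the hibernating animals. The difference was -0.83 (q = 0.01) with all 31 animals and -0.54 (q = 0.012) without K130.

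Aqp3, the basolateral exit path of the same cells, fell most of the 8 in the log2 difference (-0.87, SE 0.19, 1.83-fold, q = 0.0012). In SA, Aqp3 read 12.15, 11.13, 11.64, and 11.79, and in SpD 11.60, 11.76, 11.86, 12.35, and 13.12 (K130). In IBA, Aqp3 read 11.31, 10.56, 12.06, 11.94, and 10.37, and in Ent 11.44, 11.54, 10.82, 10.81, and 11.08. In EAr, Aqp3 read 10.75, 11.15, 10.86, 10.81, and 10.62, and in LAr 10.99, 10.54, 11.18, 10.59, and 11.33. Every SpD animal was above every Ent, EAr, and LAr animal, and the same 2 IBA animals that were high for Aqp2 reached the range of SpD. With 31 animals the difference was -1.0 (q = 0.005), and with 28 it was -0.74 (q = 0.0033). Without K130, Avpr1a and not Aqp3 had the lowest value of the 8. For Aqp3 too, SA alone did not pass 0.05 in the 29 animals against IBA (q = 0.55), Ent (q = 0.45), EAr (q = 0.055), or LAr (q = 0.085).

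Avpr2, the V2 receptor, was 1.42-fold lower in hibernation (log2 difference -0.51, SE 0.15, q = 0.01). In SA, Avpr2 read 8.67, 8.04, 8.67, and 8.40, and in SpD 8.18, 8.48, 8.93, 8.92, and 9.73 (K130). In IBA, Avpr2 read 8.39, 7.99, 8.42, 8.87, and 7.94, and in Ent 8.34, 8.74, 8.12, 7.64, and 7.92. In EAr, Avpr2 read 8.03, 8.23, 8.16, 7.79, and 7.80, and in LAr 8.09, 7.99, 7.95, 8.0, and 8.38. The states overlapped in animals, although 3 of 9 active animals lay above all 20 hibernating animals. The difference was -0.62 (q = 0.023) with 31 animals and -0.38 (q = 0.028) with 28. In the 29 animals, SA alone did not pass 0.05 in limma against IBA (q = 0.92), Ent (q = 0.64), EAr (q = 0.2), or LAr (q = 0.29).

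Avpr1a, the V1a receptor, was the member called at the study's threshold (log2 difference -0.80, SE 0.16, 1.74-fold, q = 0.00039). In SA, Avpr1a read 8.51, 9.08, 8.89, and 8.47, and in SpD 7.56, 8.22, 8.63, 8.90, and 6.99 (K130). In IBA, Avpr1a read 8.10, 7.28, 7.78, 7.36, and 7.86, and in Ent 7.29, 7.54, 7.52, 7.54, and 7.93. In EAr, Avpr1a read 7.35, 7.71, 7.45, 7.40, and 7.76, and in LAr 7.83, 7.33, 7.44, 7.78, and 7.70. All 4 SA animals lay above all 20 hibernating animals, whereas SpD ranged from below all of them (K130) to the level of SA. The difference was -0.95 (SE 0.13, q = 9e-06) without K130 and -0.68 (SE 0.20, q = 0.011) with all 31 animals, so the call at 0.001 was lost when K113 and K137 were added. It was also lost without animal 139 (q = 0.0017) or 140 (q = 0.0015) of SA, or animal 83 (q = 0.0012) or 84 (q = 0.001) of SpD. Of 6 vascular smooth muscle markers, 3 were lower in hibernation at q under 0.05 (all genes 16.8%), and none was higher. The list mean per animal ran from 9.59 to 10.30 in SA, 9.33 to 10.51 in SpD, 9.08 to 9.82 in IBA, 9.08 to 9.71 in Ent, 9.41 to 10.06 in EAr, and 9.31 to 9.46 in LAr. All SA animals lay above all LAr animals in this mean, and SA overlapped IBA, Ent, and EAr. Against the other animals of the state, this mean was below all of them in K113 (-0.44) and K130 (-0.54). In K137 it was within their range (0.31), although Avpr1a was below its state there too. The intercalated cell list mean was below the others in K113 (-0.77), K137 (-0.92), and K130 (-0.75). The proximal tubule list mean was below them in all 3 as well (-0.95, -1.06, and -1.48), and the loop and distal list mean in K113 alone (-0.42). The part of vascular smooth muscle or of other cells in the Avpr1a difference was not tested.

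Aqp1, the water channel of the proximal tubule and thin descending limb, was 1.41-fold lower in hibernation (log2 difference -0.49, SE 0.11, q = 0.0013). In SA, Aqp1 read 14.70, 15.03, 15.20, and 14.78, and in SpD 14.58, 14.95, 14.95, 15.43, and 15.92 (K130). In IBA, Aqp1 read 14.52, 14.17, 14.88, 14.86, and 14.55, and in Ent 14.96, 14.76, 14.53, 14.47, and 14.47. In EAr, Aqp1 read 14.49, 14.66, 14.69, 14.64, and 14.55, and in LAr 14.33, 14.22, 14.29, 14.44, and 14.63. All SA animals lay above all EAr and LAr animals. In limma, SA minus LAr passed 0.05 (0.54, q = 0.028) and SA minus EAr did not (0.33, q = 0.2). Aqp1 passed 0.001 with all 31 animals (-0.50, q = 0.00066) and not with 28 (-0.40, q = 0.0027).

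Aqp7, the glycerol and water channel of the straight proximal tubule, was 1.30-fold lower in hibernation (log2 difference -0.38, SE 0.11, q = 0.01), with its lowest values in IBA. In SA, Aqp7 read 11.04, 11.60, 10.66, and 11.58, and in SpD 11.29, 11.51, 11.00, 11.97, and 11.60 (K130). In IBA, Aqp7 read 10.71, 10.50, 10.92, 10.83, and 10.30, and in Ent 11.43, 11.17, 11.16, 11.04, and 10.61. In EAr, Aqp7 read 11.35, 11.19, 11.22, 11.10, and 10.68, and in LAr 11.12, 11.27, 11.02, 10.93, and 10.86. All SpD animals lay above all IBA animals, and the means of the other hibernation states lay between theirs, with animals that overlapped both. The mean of the 12 proximal tubule markers was also lowest in IBA, at 14.01 (13.61 to 14.29) against 14.30 to 14.97 in the means of the other states. Of the 12, 4 were lower in hibernation at q under 0.05 (all genes 16.8%). K130 had the lowest proximal tubule mean of SpD (13.22, against 14.24 to 14.91 in the other 4). The part of these cells in the Aqp7 and Aqp1 differences was not tested.

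Aqp6, the vesicle channel of intercalated cells, was 1.54-fold lower in hibernation (log2 difference -0.62, SE 0.14, q = 0.0016). In SA, Aqp6 read 8.77, 8.96, 8.71, and 8.48, and in SpD 8.18, 8.84, 8.70, 9.19, and 9.71 (K130). In IBA, Aqp6 read 8.16, 7.90, 8.69, 9.35, and 8.11, and in Ent 8.11, 8.57, 8.36, 8.16, and 8.61. In EAr, Aqp6 read 7.66, 8.23, 8.17, 7.69, and 7.66, and in LAr 8.37, 7.78, 8.22, 7.89, and 8.46. All SA animals lay above all EAr and LAr animals, and 3 of the 5 EAr animals gave the lowest values of all. In limma, SA minus EAr passed 0.05 (0.84, q = 0.011) and SA minus LAr did not (0.60, q = 0.06). Of the 12 other intercalated cell markers, 2 were lower in hibernation at q under 0.05, near the share of all genes (16.8%). Their list mean differed little between states (11.16 in SpD to 11.32 in SA).

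Aqp11, the intracellular channel, had a different order of states and no seasonal difference that passed (log2 difference 0.05, 95% interval -0.09 to 0.20, q = 0.59). In SA, Aqp11 read 8.96, 8.97, 8.99, and 9.12, and in SpD 8.65, 8.56, 8.51, 8.39, and 8.45 (K130). In IBA, Aqp11 read 8.82, 8.76, 8.65, 8.40, and 8.62, and in Ent 8.93, 8.48, 9.40, 8.88, and 8.77. In EAr, Aqp11 read 8.99, 8.73, 8.78, 9.14, and 8.80, and in LAr 8.70, 9.01, 8.88, 8.73, and 8.83. The active states lay at opposite ends, with every SA animal above every SpD and IBA animal and every EAr and LAr animal above every SpD animal. In the second Aqp11 row, which was not used, SA and SpD overlapped.

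**Figure D3:**
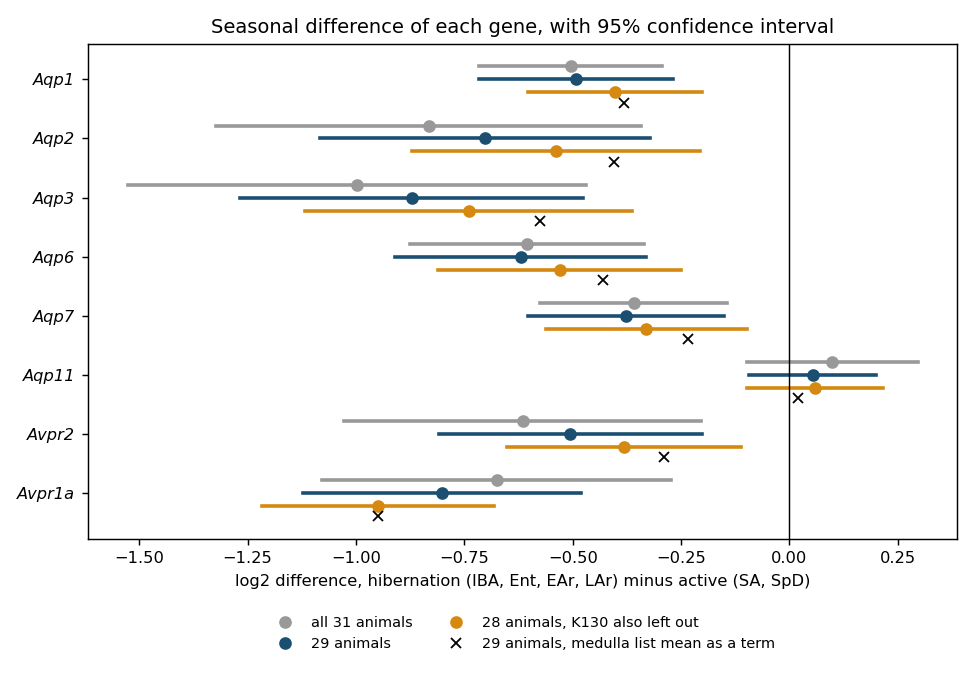
Difference of the mean of IBA, Ent, EAr, and LAr from the mean of SA and SpD for each gene, on the log2 scale, with 95% confidence intervals from limma in 31, 29, and 28 animals. Crosses are the differences in 29 animals with the medulla and osmolyte list mean as a term. In 29 animals 7 genes lie between -0.38 and -0.87 with intervals below 0, and the interval of Aqp11 (-0.09 to 0.20) includes 0.

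The seasonal difference of the collecting duct genes was set beside the markers of the same cells and of the medulla. Of the 8 principal cell markers that are not members (among them the subunits of the epithelial sodium channel), 0 differed between hibernation and active states at q under 0.05 in limma (all genes 33.4%). Across states 1 differed (Scnn1g, q = 0.033, named after its value was seen, all genes 46.1%). The median difference of these markers between hibernation and active states was -0.02. Their list mean was highest in SpD (12.05, 11.93 to 12.34) and lowest in SA (11.66, 11.63 to 11.69), while the 4 hibernation states lay between 11.71 and 11.83. With this list mean as a term, a fit chosen after seeing the data, Aqp2 was at -0.59 (q = 0.0029), Aqp3 at -0.76 (q = 0.00081), and Avpr2 at -0.44 (q = 0.013). In this fit 35.4% of all genes passed 0.05 in either direction. Of the 9 medulla and osmolyte genes, 2 were lower in hibernation at q under 0.05 (all genes 16.8%), and their list mean ran from 10.12 in LAr to 11.11 in SpD. With the medulla and osmolyte list mean as a term, Aqp2 (-0.41, q = 0.023) and Aqp3 (-0.58, q = 0.0041) passed 0.05. Avpr2 (-0.29, q = 0.063) and Aqp7 (-0.23, q = 0.065) did not pass, and Avpr1a was at -0.95 (q = 6.9e-05). Avpr1a, Aqp1 (-0.38), and Aqp6 (-0.43) passed 0.05 in this fit, so 5 of 8 did in all (all genes 32.2% in either direction). The part that the make-up of the fragments had in these differences was not tested. Bst1, a cell surface enzyme on this list, passed 0.001 across states (q = 0.00097), with a mean of 10.42 in EAr and 9.69 in IBA.

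The experiments were compared through the states that both held. In experiment 1 (3 animals a state), the mean of IBA and Ent minus SpD was -0.46 for Aqp2, -0.39 for Aqp3, -0.15 for Avpr2, -0.16 for Aqp1, -0.28 for Aqp7, -0.18 for Aqp6, and -0.49 for Avpr1a, and no member passed 0.05 (lowest q 0.34). In experiment 2 (2 animals a state, K130 among them), the same difference was -1.50 for Aqp2, -1.64 for Aqp3, -1.18 for Avpr2, -1.05 for Aqp1, -1.19 for Aqp7, -0.87 for Aqp6, and -0.31 for Avpr1a. Of these, Aqp1 (q = 0.00061), Aqp7 (q = 0.00081), Avpr2 (q = 0.0053), Aqp3 (q = 0.0073), and Aqp2 (q = 0.011) passed 0.05. The share of all genes past 0.05 within each experiment was not counted. The sign was the same in both experiments for all 7, and Aqp11 was at 0.25 and 0.24. The difference between experiments itself passed for none of the 8 members (q from 0.19 to 1) and for 0 of all genes. In experiment 2 without K113 and K137, SpD again held 2 animals, K130 among them. Hibernation minus active was then -0.74 for Aqp1 (q = 2.1e-05), -0.67 for Aqp7 (q = 2e-04), -1.22 for Aqp3 (q = 0.00053), and -0.79 for Avpr2 (q = 0.00069). These 4 were called at 0.001, while Avpr1a (-0.74, q = 0.013) was not. The share of all genes called in this fit was not counted.

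Successive states were compared in 7 pairs, which ask where in the yearly and the torpor cycle a gene moved. No member passed 0.001 in any pair. IBA against SA, the step into hibernation, gave 3 of 8 members at q under 0.05, all lower (all genes 22.9%, and 3.15% at 0.001). Avpr1a was 1.10 lower in IBA (-1.10, SE 0.29, 2.14-fold, q = 0.0084), Aqp7 was at -0.62 (SE 0.20, q = 0.03), and Aqp11 at -0.46 (SE 0.13, q = 0.015). SpD against IBA, the step out of it, gave 2 of 8, both higher (all genes 11.9%, and 1.25% at 0.001), namely Aqp7 (0.82, SE 0.17, 1.77-fold, q = 0.0031) and Aqp1 (0.57, SE 0.17, 1.48-fold, q = 0.03). Aqp2 (0.81, q = 0.068) and Aqp3 (0.89, q = 0.054) had larger standard errors in this pair (0.29 and 0.30) and did not pass. SA against SpD gave 1 of 8 (all genes 10.5%, and 0.0544% at 0.001), with Aqp11 higher in SA by 0.59 (SE 0.13, 1.51-fold, q = 0.0098).

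In the 4 successive pairs within the torpor cycle no member passed 0.05 in limma. The background was 13.1% for Ent against IBA (0.746% at 0.001), 0.257% for EAr against Ent (0.132%), 0.575% for LAr against EAr (0.295%), and 18% for IBA against LAr (1.43%), and at an unadjusted p under 0.05 there were 2, 1, 0, and 3 members, respectively. The largest of these differences was that of Aqp6 from Ent to EAr (-0.73, 95% interval -1.25 to -0.22, q = 0.43). Aqp7 was 0.43 higher in Ent than in IBA (q = 0.095), which did not pass.

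Some of these pairs rested on a few animals. With all 31 animals, Aqp1 (q = 0.035) and Aqp7 (q = 0.004) in SpD against IBA were the 2 that passed, and Avpr1a in IBA against SA was at -0.76 (q = 0.18). Without K130, Aqp1 in SpD against IBA was at 0.39 (q = 0.098), Aqp11 in SA against SpD at 0.61 (q = 0.057), and Avpr1a was higher in SpD than in IBA by 0.68 (q = 0.03). Aqp11 in IBA against SA had a q of 0.07 without animal 104 of IBA, and Aqp7 in that pair reached a q of 0.13 without animal 171 of IBA.

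**Figure D4:**
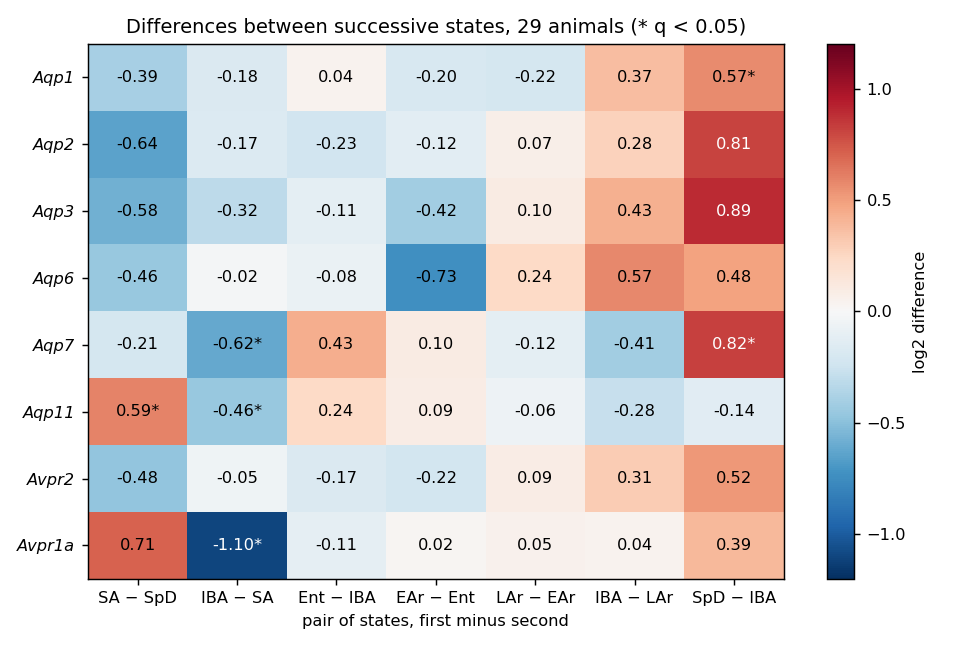
Log2 difference of each gene in the 7 pairs of successive states, first state minus second, in the 29 animals. Red is higher and blue lower in the first state, and an asterisk marks a limma q under 0.05 over all genes. Asterisks appear only in SA against SpD (Aqp11), IBA against SA (Aqp7, Aqp11, Avpr1a), and SpD against IBA (Aqp1, Aqp7).

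Levels adjusted to equal sexes and to experiment 2 gave the order of the states. SpD was highest and SA next for Aqp1, Aqp2, Aqp3, Aqp6, Aqp7, and Avpr2, and SpD was highest in the same number of members (6 of 8) with 31 and with 28 animals. EAr was lowest for Aqp2 (12.10 against 13.26 in SpD), Aqp3 (10.83 against 12.25), Aqp6 (7.89 against 9.19), and Avpr2 (8.0 against 8.92). LAr was lowest for Aqp1 (14.39 against 15.32 in SpD) and IBA for Aqp7 (10.60 against 11.43). Avpr1a ran from 8.74 in SA through 8.03 in SpD to 7.53 in Ent, and Aqp11 from 9.01 in SA to 8.42 in SpD. No neighbours in any of these orders differed at q under 0.05, and the lowest q was that of Avpr1a between SA and SpD (0.1).

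States farther apart in the order did differ, although the share of all genes called in these pairs was not counted. EAr was lower than SpD for Aqp6 (-1.30, q = 0.0011), Aqp3 (-1.42, q = 0.0057), Aqp1 (-0.72, q = 0.011), Aqp2 (-1.16, q = 0.016), and Avpr2 (-0.92, q = 0.016), and LAr was lower than SpD for the same 5 genes (q from 0.0019 for Aqp1 to 0.027 for Avpr2). Most of these calls rested on K130. Without it, Aqp6 (-1.0, q = 0.02) passed in EAr against SpD, while Aqp1 (-0.43, q = 0.17), Aqp2 (-0.63, q = 0.23), Aqp3 (-0.99, q = 0.085), and Avpr2 (-0.52, q = 0.23) did not. In LAr against SpD, Aqp1 (-0.66, q = 0.031) then passed, while Aqp6 (q = 0.07), Aqp3 (q = 0.11), Aqp2 (q = 0.26), and Avpr2 (q = 0.29) did not. With all 31 animals, Aqp2 and Avpr2 passed in neither pair (q from 0.08 to 0.28) and Aqp3 passed in EAr against SpD (q = 0.047) and not in LAr against SpD (q = 0.15).

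Aqp6 was also higher in IBA than in EAr (0.81, q = 0.027), both states of the torpor cycle, and passed with 31 animals (q = 0.033) and with 28 (q = 0.047). Aqp7 was lower in IBA than in EAr in 28 animals (-0.59, q = 0.044) and did not pass in 29 (q = 0.06). Avpr1a was higher in SA than in Ent (1.21, q = 0.0072), EAr (1.19, q = 0.0019), and LAr (1.14, q = 0.0024), of which LAr passed with all 31 animals (0.97, q = 0.024) and Ent (0.87, q = 0.15) and EAr (0.85, q = 0.065) did not. Aqp11 was higher than in SpD in Ent (0.38, q = 0.032), EAr (0.47, q = 0.011), and LAr (0.41, q = 0.023). None of these 3 Aqp11 differences passed in limma with all 31 animals (q = 0.14, 0.075, and 0.26), and that of LAr did not pass without K130 (q = 0.073). Shares of all genes were likewise not counted for these pairs of states. Sex and experiment had no member past q under 0.05 (lowest q 0.75 for sex, Aqp7, and 0.83 for experiment, Aqp6). Over all genes, 28 passed for sex and 5 for experiment. The experiment effect had already been taken out of the values, so its term cannot show whether experiment affected a member.

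Other genes of the pathway were taken from lists. Vasopressin signalling (G proteins, adenylyl cyclases, protein kinase A, anchoring proteins, and desensitizing proteins) had 22 of 26 listed genes in the table, of which 3 passed 0.001 across states and 8 passed 0.05, beside 9.34% and 46.1% of all genes. In hibernation minus active, 5 of the 22 were higher and 2 lower at q under 0.05, beside 16.6% and 16.8% of all genes, with a median of 0.08. Plcb1, a phospholipase C that Gq activates, had means of 11.09 ± 0.12 in EAr and 11.03 ± 0.12 in Ent (SD, n = 5) against 10.41 ± 0.31 in SpD (SD, n = 5), with q = 7.5e-05. Prkar1b, a regulatory subunit of protein kinase A, was lowest in SA (7.85 ± 0.08, n = 4) and highest in Ent (8.51 ± 0.26, n = 5), with q = 1e-04. Grk2, a kinase that desensitizes receptors, was highest in IBA (11.24 ± 0.06) and lowest in Ent (10.87 ± 0.21), with q = 5e-04. With all 31 animals Prkar1b (q = 0.0088) and Grk2 (q = 0.0013) no longer passed 0.001.

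Proteins that carry Aqp2 vesicles had 30 of 31 listed genes in the table, with 1 past 0.001 across states and 12 past 0.05, shares below those of all genes. Hspa8, the constitutive heat shock protein that uncoats clathrin vesicles, was highest in SA (15.92 ± 0.20, n = 4) and 15.18 ± 0.14 to 15.36 ± 0.16 in the hibernation states (q = 0.00016, and 0.0027 with all 31 animals). In hibernation minus active, 6 of the 30 were higher and 4 lower at q under 0.05, near the shares of all genes, with a median of -0.01. Past 0.001 were Hspa8, lower by 0.43 (-0.43, q = 3.3e-05), and Arhgdia, higher by 0.19 (q = 0.00052), the latter named after its value was seen. Regulators of the Aqp2 gene had 15 of 16 listed genes in the table, and 0 of them passed 0.001 and 4 passed 0.05 across states (all genes 9.34% and 46.1%). None of the 15 differed between hibernation and active states at q under 0.05 in limma (all genes 33.4%), with a median of -0.11. Mip, Aqp5, Aqp8, Aqp9, Aqp10, and the Aqp12 genes were listed too, and 0 of these 8 symbols matched a row.

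Markers of other cells in the fragments were counted in the same contrast, in which 16.8% of all genes were lower at q under 0.05. Of 9 endothelial markers, 7 were lower in hibernation at q under 0.05 with a median of -0.37, and Plvap, the diaphragm protein of fenestrated capillaries, passed 0.001 across states (q = 0.00071, highest in SpD at 13.81 and lowest in LAr at 12.92, named after its value was seen). Of 7 loop and distal tubule markers 4 were lower (median -0.47), of 7 fibroblast markers 3 were lower (median -0.50), and of 5 macrophage markers 1 was lower (median -0.07). Only 2 red blood cell and 2 adipocyte markers had a row, of which 1 red blood cell marker was higher, 0 adipocyte markers passed in either direction. The vascular smooth muscle list had a median of -0.48 and the proximal tubule list one of -0.25. The part of these cells in the members' differences was not tested.

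Values of the collecting duct genes ran together from animal to animal. Over the 29 animals the gene most like Aqp2 was Aqp3 (Pearson's r 0.939, Spearman's rank correlation 0.916), followed by Ptger1 (0.895) and Slc4a11 (0.881). Aqp3 was most like Aqp2, Avpr2 (r 0.894), and Tinagl1 (0.872), and Avpr2 was most like Aqp3, Ptger1 (0.889), and Aqp2 (0.854). These r describe animals that share states, experiments, and the way a fragment was taken, and carry no test. The r of Aqp2 with Aqp3 was 0.962 with all 31 animals and 0.914 without K130, and 0.906 over the residuals after state, sex, and experiment. Aqp2 and Avpr1a had an r of 0.15, which was -0.13 with all 31 animals and 0.44 without K130.

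The remaining members had other nearest genes. Aqp1 was most like Avpr2 (r 0.815), Aqp3 (0.813), and Bcat2 (0.812), and Aqp6 was most like Egf (0.889), Aqp3 (0.844), and Slc4a1 (0.832). Far2 (0.888) and Acsm3 (0.884) were among the genes most like Aqp7. Aqp11 was most like Bcap29 (0.860), Snap29 (0.843), and Tmem237 (0.843), and Avpr1a most like Znrf1 (0.869), Nt5e (0.852), and Rab3il1 (0.849).

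Over the residuals, which no longer hold the differences between states, the nearest genes were partly others. Aqp2 was then most like Lmo7 (0.914), Aqp3 (0.906), and Esrp1 (0.901), Aqp3 most like Aqp2, Lmo7 (0.871), and Arhgef4 (0.853), and Avpr2 most like Rab25 (0.897), Shisa4 (0.880), and Spint2 (0.876). Aqp1 was most like Abhd17c (0.818), Syp (0.803), and Gprc5a (0.785), and Aqp6 most like Itm2c (0.850), Abhd17c (0.827), and Egf (0.825). Frzb (0.829) and Acsm3 (0.814) were among those most like Aqp7, and Aqp11 kept Tmem237 (0.831) beside Fam210b (0.849) and Arcn1 (0.818). Avpr1a was most like Ca8 (0.880), Slc8a1 (0.825), and Calb1 (0.801). Over values, Aqp3 and Aqp7, neighbours in the RefSeq annotation, had an r of 0.459, and Aqp2 and Aqp6 one of 0.808.

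**Figure D5:**
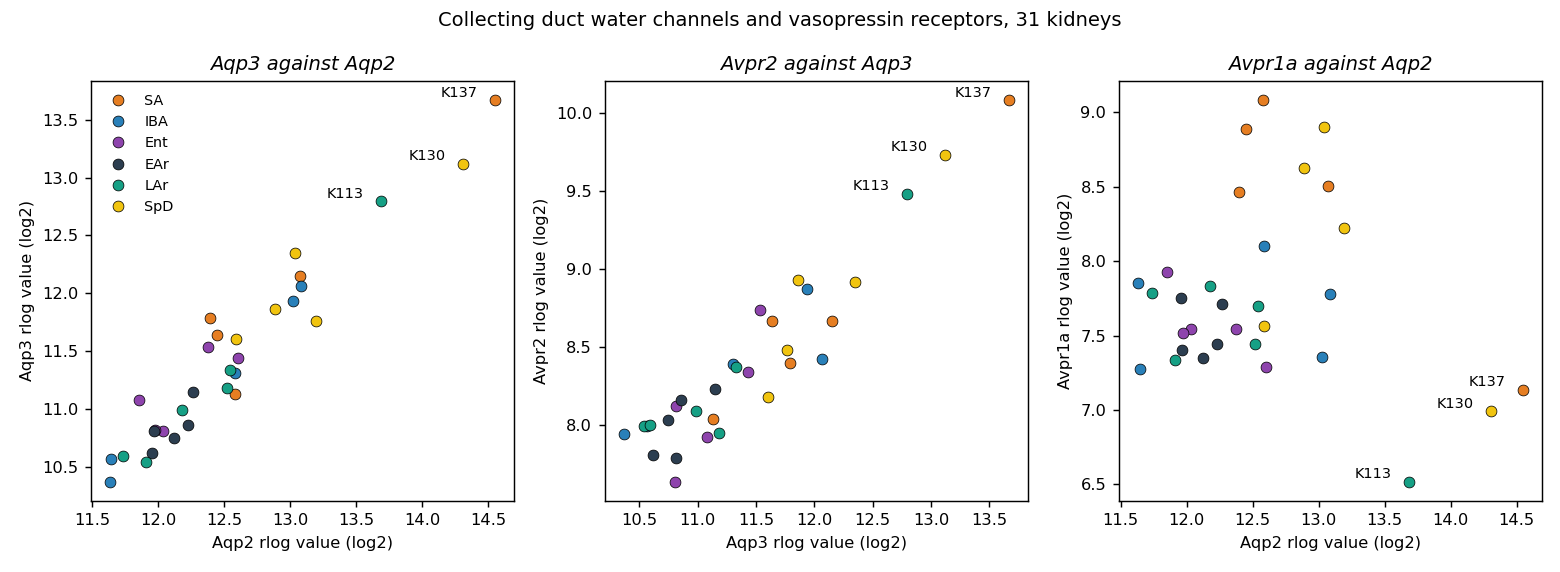
Batch-corrected rlog values (log2 scale) of Aqp3 against Aqp2, Avpr2 against Aqp3, and Avpr1a against Aqp2 in the 31 kidneys, coloured by state. K113, K137, and K130 are labelled and sit at the upper end for Aqp2, Aqp3, and Avpr2 and at the lower end for Avpr1a.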

How the data were processed

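Kidney RNA of 31 animals in 6 states was measured. After poly(A) selection, the authors trimmed reads (cutadapt), discarded those of mitochondria (hisat2), and estimated transcript abundance on the HiC_Itri_2 genome (Salmon, summed to genes by tximport). The authors kept genes with rlog values of at least 7 in most animals of a group, transformed them by the rlog of DESeq2, and took out the experiment effect with limma. Tool versions are not given in the sources used here. The deposited values are thus on the log2 scale. With no counts, the spread between animals sets the precision.

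The study's test needs counts. Instead, the deposited values of 29 animals were modelled with limma (version 3.58.1, R version 4.3.3), with terms for state, sex, and experiment and an intensity trend. Benjamini-Hochberg adjustment ran over all 12863 genes within each contrast, tests were 2-sided, and genes were called at q under 0.001 with q under 0.05 beside it. The experiment means were already gone from the values, a loss that this model ignores. Fits were repeated in 31 and 28 animals, and the model was tested on simulated data. Figures were drawn with matplotlib 3.10.9.

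Members and gene lists were chosen with earlier results of these data known. Named genes are the members, list genes at q under 0.001 across states (at most 5 a list), the 3 genes most like each member by Pearson's r over values and over residuals, and the medulla and osmolyte genes. One gene that this rule names is not reported here. Positions and sequences are not given, because the RefSeq table used here is of another assembly (mIctTri1.hap1). Alternatives were experiment 2 only, no term for experiment or sex, a marker list mean as a term, no trend, a robust prior, animal weights, a filter on low means (8), median centring, fits of 2 groups, other thresholds, and each animal left out.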

Additional observations from a re-analysis of the deposited data

Results flagged for a closer look

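Of 48 groups of values (8 genes in 6 states, all 31 animals), 4 held an animal far from the rest by Dixon's criterion at the 95% level, and chance flags about 1 in 20 groups. In LAr, K113 was the highest for Aqp3 at 12.80, with the next animal at 11.33. K113 was also the highest for Avpr2 in LAr at 9.48, with the next at 8.38, and the lowest for Aqp11 at 8.13, with the next at 8.70. In SA, K137 was the lowest for Aqp11 at 8.27, with the next animal at 8.96. All 4 values belong to the animals that the fit of 29 animals leaves out.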

How the results depend on the processing

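No member changed the sign of a result that was called in the main fit under any alternative run. No paired analysis was possible because each animal gave 1 library and the labelled animal numbers are not shared between states. The number of members past 0.001 across states was 0, and 1 in 28 animals, in experiment 2 only, with the medulla list mean as a term, and with animal weights. At 0.05 it was 8, and 3 in all 31 animals. It was 6 in 28 animals, with the medulla list mean as a term, and with animal weights. With the principal cell list mean as a term, and among genes with a mean of at least 8, it was 7. In the pairs, 0 passed 0.001 and 4 passed 0.05 (2 in all 31 animals, 7 in experiment 2 only). In hibernation minus active, 1 member passed 0.001, and 4 in experiment 2 only. There were 3 with the principal cell list mean as a term (chosen after seeing the data), and 0 among genes with a mean of at least 8, where Avpr1a is dropped. At 0.05 there were 7, with 5 when the medulla list mean was a term, and 6 with animal weights and among genes with a mean of at least 8. Across states, the share of all genes past 0.05 was 46.1% in the main fit, 32.8% in 31 animals, and 42.2% in 28. It was 43% with the medulla list mean and 44.1% with the principal cell list mean as a term. In the other fits, and with single animals left out, this share was not counted. A changed count there may thus not be particular to the members.

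Leaving out each of the 29 animals in turn gave 0 to 1 and 6 to 8 members across states (0.001 and 0.05), 0 to 1 and 3 to 7 in the pairs, and 0 to 4 and 7 to 7 in hibernation minus active. The last count at 0.001 was 0 without animal 139 or 140 (SA) or 83 or 84 (SpD), 4 without 77 (SpD), 3 without 75 or 104 (IBA), and 2 without 62 or 64 (Ent). Across states it was 1 without 130 (SpD), 171 (IBA), or 64 (Ent). In the pairs it was 1 without 83 and, at 0.05, 7 without 77. Avpr2 across states passed 0.05 narrowly and was lost without any 1 of 13 animals (highest q 0.19, without K130, animal 130), and Aqp2 was lost without K130 (q = 0.11). Aqp1 in SpD against IBA was lost without any 1 of 5 animals (highest q 0.098) and Aqp7 in IBA against SA without any 1 of 4 (highest q 0.13). In a fit of the 2 groups alone, Avpr1a (q = 0.074) and Aqp11 (q = 0.068) in IBA against SA and Aqp1 (q = 0.16) in SpD against IBA did not pass. With animal weights, Aqp7 in hibernation minus active (q = 0.072), Avpr1a in IBA against SA (-0.66, q = 0.089), and Aqp2 (q = 0.1) and Avpr2 (q = 0.09) across states did not pass.

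Observed group means in place of adjusted levels kept the full order of states in 4 of 8 members, the highest state in 8, and the lowest in 7. Of the 3 nearest genes of each of the 8 members, Spearman's rank correlation in place of Pearson's r kept 13 in all over values and 11 over residuals. Without depths, it is not known how far counting limits Avpr1a, Avpr2, Aqp6, and Aqp11, whose means are the lowest of the 8. The cause of these changes was not tested, apart from the filter, which removes a gene.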

Other observations

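A second row named Aqp11 (gene21075), whose name the table takes from a match to a human sequence, was not used. Its mean was 7.44. It read 7.49 to 7.81 in the 4 SA animals other than K137 (7.22), 6.96 to 7.53 in SpD, and 7.11 to 7.48 in IBA. In LAr it read 7.34 to 7.71 in the 5 animals other than K113, which was at 6.96. In Ent it read 7.33 to 7.71, and in EAr 7.47 to 7.79. SpD overlapped SA in this row, with animal 77 of SpD (7.53) above animals 138 and 139 of SA (both 7.49). It is not known whether the 2 rows share reads.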
